A study of Homo sapiens with 12 samples.

Results

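The data described here are the levels of 7 genes of deoxynucleotide synthesis, RRM1, RRM2, RRM2B, TYMS, TK1, DUT and DCK, in RNA-seq of A549 and H1792 cells. They were chosen by name and taken from a table of 20595 genes by their Ensembl identifiers, and each symbol matched 1 row. A549 and H1792 are human lung adenocarcinoma (LUAD) cell lines with amplified MDM2, the gene of the ubiquitin ligase that holds p53 down. A549 was taken as p53 wild-type (WT) and H1792 as p53 mutant. Cells of each line were kept for 48 h with DMSO, the solvent, or with RG7112 at 1 μM, a nutlin-type small molecule that keeps MDM2 from binding p53. There were 3 replicates in each of the 4 groups, or 12 samples. The question of the comparison was how inhibition of MDM2 changes gene expression with and without WT p53. Each p53 state is carried by 1 cell line, so p53 status cannot be told apart from any other difference between the lines. The labels do not say that replicates came from separate cultures, and p-values then measure the spread between these samples, which may be technical.

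Cells make DNA precursors by 2 routes. In the de novo route, ribonucleotide reductase removes an oxygen from ribonucleotides, with RRM1 as its large catalytic subunit and RRM2 or RRM2B as the small subunit that supplies the radical. RRM2 is made in S phase and is a known target of E2F transcription factors, whereas RRM2B is a known target of p53 that serves DNA repair and mitochondrial DNA outside S phase. DUT cleaves dUTP to dUMP, which keeps uracil out of DNA and feeds thymidylate synthase, TYMS, the enzyme that methylates dUMP to dTMP. In the salvage route, thymidine kinase TK1 phosphorylates thymidine and deoxycytidine kinase DCK phosphorylates deoxycytidine and purine deoxynucleosides. TYMS, TK1, DUT and RRM1 are also commonly listed with the genes that E2F factors switch on at the start of S phase.

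The samples held 2011916 to 6218825 estimated counts. Levels are given as CPM (counts scaled to a common library size by TMM), and 3 counts, taken as the limit that a count of 0 allows, stood for 0.465 to 1.43 CPM. Intervals and limits cover counting error only. Replicate 3 of both A549 groups stood apart from the other replicates. Counts of pairs with replicate 3 differed by a chi-square of 17.2 to 25.6 per degree of freedom, against 5.93 and 5.38 for replicates 1 and 2, and over genes the deviations of both replicate 3 samples correlated with each other (r 0.273) and not with the other numbers (-0.209 to -0.132). The A549 values are therefore also given without both samples, a fit of 2 against 2 added after the data were seen. CDKN1A, the cyclin-dependent kinase inhibitor induced by p53, rose in A549 from 37.2 ± 11.4 CPM with DMSO to 445 ± 431 CPM with RG7112 (SD, n = 3), a log2 fold change of 3.58 (edgeR adjusted p = 0.0252). MDM2, itself a p53 target, rose in A549 from 8.54 ± 4.99 to 69.2 ± 9.27 CPM (log2 fold change 2.99, adjusted p = 0.0102). In H1792 the log2 fold changes were 0.15 for CDKN1A (adjusted p = 0.882) and -0.05 for MDM2 (adjusted p = 0.928). The call of CDKN1A in A549 was lost without any 1 of the 3 DMSO samples (adjusted p = 0.0867 to 0.0960), and that of MDM2 without DMSO replicate 2 (0.0534). With RG7112, CDKN1A stood at 942 CPM in A549 replicate 3 against 203 and 190 CPM in the others, and without both replicate 3 samples its log2 fold change was 2.18 (adjusted p = 0.00171). Of 5 general epithelial markers, KRT8, KRT18 and KRT19 were above 3 counts in every sample. CDH1 was above 3 counts in every A549 sample but in neither whole H1792 group, and EPCAM only in the whole group of treated H1792. The summed level of the 5 was 13978 to 23160 CPM in A549 and 889 to 1762 CPM in H1792. Of 5 lung epithelial markers, NAPSA alone was above 3 counts in every A549 sample, none was in H1792, and SCGB1A1 was at 0 in all samples. Leukocyte and endothelial markers were low, with CD14 the main exception in A549 (13.3 to 23.7 CPM summed over 4 leukocyte markers). The summed level of 4 fibroblast markers, led by COL1A1 and COL1A2, was 1117 to 1426 CPM in H1792 and 1.91 to 9.22 CPM in A549.

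Promoter sequence was read for the 6 genes with an entry among the RefSeq promoters (GRCh38.p14), over the 250 bases before each transcription start. The words searched on both strands were TTTCCCGC, TTTGGCGC, TTTCGCGC and TTTGCCGC for an E2F site, the shorter TTCCCGC and TTGGCGC that lie within the first pair, TTTGAA and TTTAAA for the cell cycle homology region (CHR) bound by the DREAM complex, and CCAAT for the box bound by NF-Y. Of 35116 windows, 2.79% held a long E2F word, 7.81% a short one, 21.9% a CHR word and 32.0% a CCAAT box. The principal window of RRM2 held CCAAT 3 times and TTTAAA 1 time, and no E2F word, and its other window held 1 short E2F word and 1 CCAAT. The principal window of TK1 held TTTAAA, and its other window held 1 short E2F word, 2 CHR words and 2 CCAAT boxes. The single window of RRM1 held a short E2F word, a CHR word and CCAAT, and that of TYMS held 1 long E2F word. The principal window of DUT held none of the words, but 1 of its 4 windows held 2 long E2F words and 2 CHR words. The window of DCK held 2 short E2F words and no other word. The stretches of 30 bases below show the repeated CCAAT box of RRM2 and matches in TK1, DUT and TYMS, 4 genes whose responses are set beside each other in what follows. Capitals mark the words, all are written 5′ to 3′ on the strand of the gene, and a match is a description of the letters and not of a bound site.
RRM2, CCAAT 123 bases before the start, chr2:10122604-10122633, plus strand: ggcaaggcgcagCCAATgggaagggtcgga
RRM2, CCAAT 93 bases before the start, chr2:10122634-10122663, plus strand: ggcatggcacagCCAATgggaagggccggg
RRM2, CCAAT 66 bases before the start, chr2:10122661-10122690, plus strand: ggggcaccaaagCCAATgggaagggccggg
RRM2, TTTAAA 30 bases before the start, chr2:10122697-10122726, plus strand: cggcgcgggagaTTTAAAggctgctggagt
TK1, TTTAAA 98 bases before the start, chr17:78187285-78187314, minus strand: tcgctccgccccTTTAAActtggtgggcgg
DUT, 2 E2F words 42 and 27 bases before a start, chr15:48332152-48332181, plus strand: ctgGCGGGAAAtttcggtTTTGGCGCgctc
TYMS, E2F word 39 bases before the start, chr18:657603-657632, plus strand: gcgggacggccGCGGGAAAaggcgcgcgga

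RRM2 RNA fell 48.6-fold in A549 cells under RG7112. With DMSO its level was 198, 212 and 137 CPM in replicates 1 to 3, and with RG7112 it was 3.56, 4.29 and 3.53 CPM. The groups did not overlap, and the 3 treated samples lay closer to each other than the untreated ones. The log2 fold change was -5.60 (standard error, SE, 0.26) with an edgeR adjusted p of 0.000283. The raw counts fell from 634, 1242 and 552 to 23, 9 and 13. The call held in all 17 alternatives that gave a value, with log2 fold changes from -5.77 to -5.40, and -5.75 without both replicate 3 samples. All fold changes are of RNA per sample, and in bulk samples fewer cells with the RNA and less RNA per cell cannot be told apart.

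TK1, the thymidine kinase of S phase, fell as well, with a larger standard error. It stood at 35.0, 43.7 and 87.2 CPM with DMSO, and at 0, 0 and 5.43 CPM with RG7112. Replicates 1 and 2 of the treated group held no count, which at their depths allows up to 0.465 and 1.43 CPM, and replicate 3 held 20 counts. On the log2 scale TK1 changed by -4.92 (SE 1.17, adjusted p = 0.0473). TK1 entered the test through its DMSO samples. Its call was lost with DESeq2 (adjusted p = 0.110), without the filter on low counts (0.0744) and without any 1 sample other than RG7112 replicate 3 (0.0883 to 0.121). All TK1 counts of the treated group were in replicate 3, which stood apart. Without it the fitted value was -10.90 (adjusted p = 0.0123), and without both replicate 3 samples -10.44 (adjusted p = 0.00532), both of which rest on treated samples at 0 and are no estimate of size.

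DUT, the dUTP pyrophosphatase, fell from 127, 128 and 152 CPM to 57.7, 64.4 and 58.1 CPM in A549. The groups did not overlap, and the highest treated sample lay far below the lowest untreated one. This 2.26-fold decrease had a log2 fold change of -1.18 (SE 0.15, adjusted p = 0.00495). The call of DUT held in all 18 alternatives, with log2 fold changes from -1.23 to -1.04, and -1.06 without both replicate 3 samples.

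RRM1, the large subunit, measured 45.9, 31.6 and 23.4 CPM with DMSO and 12.1, 19.1 and 5.43 CPM with RG7112 in A549. The groups did not overlap, but replicates within each group spread widely. Its log2 fold change of -1.49 (SE 0.47) did not pass the threshold (adjusted p = 0.107), although it did with DESeq2 (0.0294) and in the fit over all 12 samples (0.0350). TYMS, the thymidylate synthase, measured 91.5, 105 and 119 CPM with DMSO and 74.7, 57.2 and 82.0 CPM with RG7112. Again no treated sample reached the lowest untreated one, and the log2 fold change was -0.56 (SE 0.19), which did not pass (adjusted p = 0.126).

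RRM2B, the small subunit under p53 control, measured 6.25, 7.85 and 1.74 CPM in A549 with DMSO and 16.6, 13.8 and 5.43 CPM with RG7112. Replicate 3 was the lowest of its group in both treatments, and its treated value lay below 2 of the untreated values, so the groups overlapped. RRM2B had a log2 fold change of 1.17 (SE 0.63) that did not pass the test (adjusted p = 0.316), nor did it in any of the 17 alternatives that gave a value (adjusted p from 0.0680 to 0.587). Without both replicate 3 samples, where RRM2B was lowest, its log2 fold change was 1.11 with an SE of 0.29 (adjusted p = 0.0830). The summed counts were 73 with DMSO and 156 with RG7112. The ratio of these sums per effective library size was 2.28, with an exact 95% counting interval of 1.72 to 3.06 that leaves out the spread between replicates. DCK was near the limit of detection in A549, with 0, 13 and 17 counts under DMSO and 4, 6 and 6 counts under RG7112. It did not pass the filter and was not tested in either cell line.

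**Figure D1:**
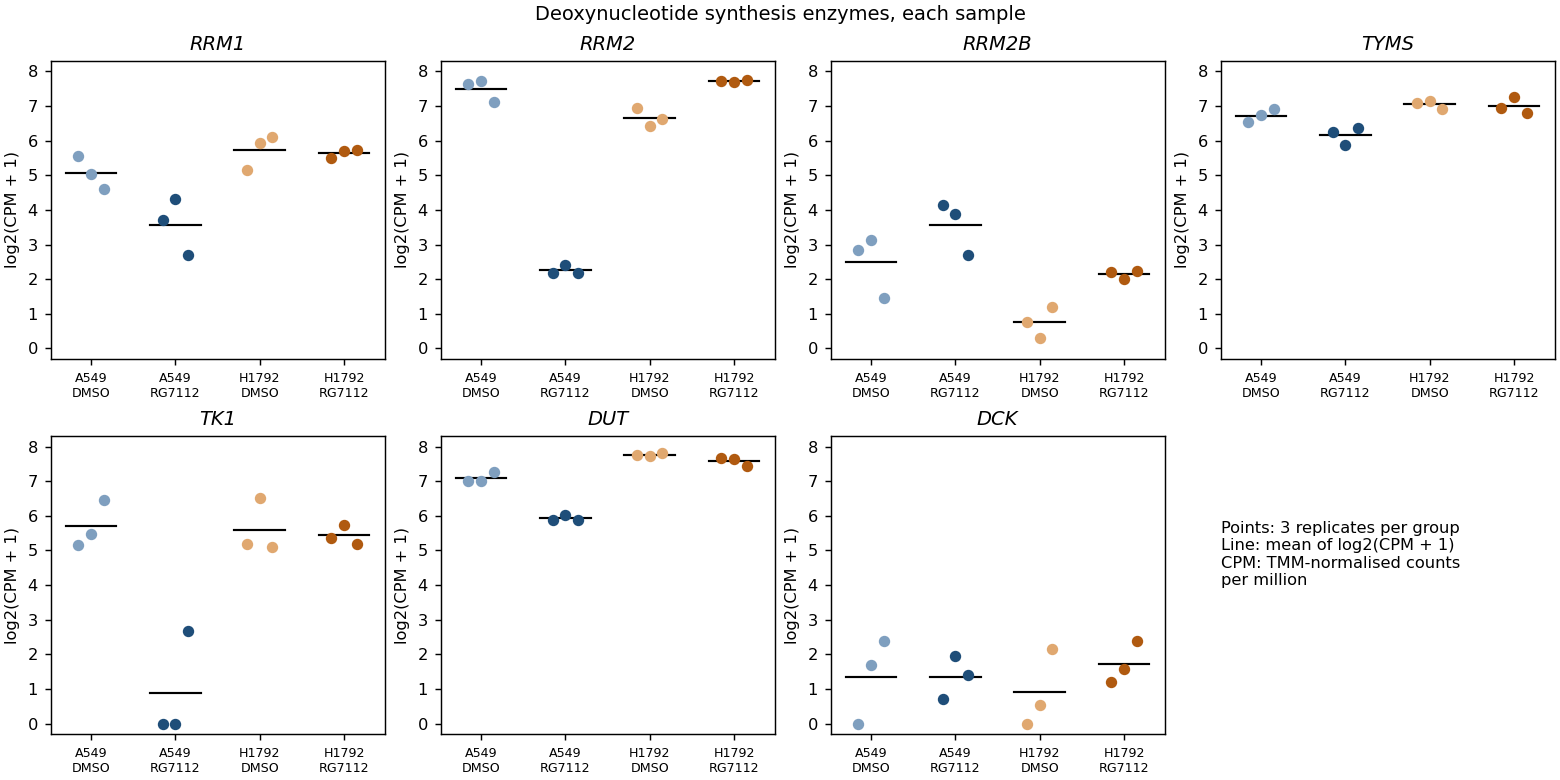
Level of each of the 7 genes in each of the 12 samples, as log2(CPM + 1) on the vertical axis, by cell line and treatment on the horizontal axis. Points are replicates and horizontal lines are means. RRM2 and TK1 are near the bottom of the scale with RG7112 in A549, whereas in H1792 RRM2 and RRM2B are higher with RG7112.

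In A549, 6 of the 7 genes were thus tested and 3 of them, RRM2, TK1 and DUT, were called lower, where 3.01% of all tested genes were. TK1 passed the filter only through the DMSO samples in which it is high, so its call is not read against that share. None was called higher, where 3.18% were. CPM did not overlap between treatments for RRM1, RRM2, TYMS, TK1 and DUT, which is 5 of the 7 genes. Among all genes tested in A549, 32.4% did not overlap. The 7 include DCK, which was not tested, and the 5 include TK1, so this count is not read against that share.

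In H1792 cells both small subunits rose. RRM2 measured 122, 85.2 and 98.5 CPM with DMSO and 212, 206 and 216 CPM with RG7112. Each treated sample lay above each untreated one, and the treated samples lay close together. This 2.18-fold increase had a log2 fold change of 1.13 (SE 0.15, adjusted p = 0.00404). Its size lay near the log2 threshold of 1 and fell below it without H1792 DMSO replicate 2 (0.98).

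RRM2B measured 0.705, 0.231 and 1.31 CPM in H1792 with DMSO, from 2, 1 and 3 counts. With RG7112 it measured 3.62, 3.02 and 3.72 CPM, from 14, 17 and 16 counts. The groups did not overlap, and the treated samples were still below 2 of the 3 untreated A549 samples. The increase was 2.38 on the log2 scale (SE 0.61, adjusted p = 0.0249). RRM2B entered the test through its treated samples, and its call was lost without any 1 sample other than DMSO replicate 3 (adjusted p = 0.0619 to 0.0935). The summed counts of 6 and 47 gave a ratio per effective library size of 5.37, with an exact 95% counting interval of 2.29 to 15.4.

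Across the table, the H1792 responses were lower for genes richer in GC (Spearman's rho -0.460 across 9165 genes, which are not independent). RRM2 and RRM2B have a GC content of 43.4% and 41.3%, below the median of 50.3%. After a correction for GC content the log2 fold change of RRM2 in H1792 was 0.76 (adjusted p = 0.0100), under the fold threshold, and that of RRM2B was 1.94 (adjusted p = 0.0586), so that neither was called. Both kept their sign. In A549, where rho was 0.252 across 9941 genes, the corrected log2 fold changes were -5.43 for RRM2, -5.25 for TK1 and -1.04 for DUT, and all 3 were still called. The part of GC content in the H1792 values was not tested beyond this correction.

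None of the other tested enzymes passed the test in H1792. RRM1 measured 34.5, 59.8 and 68.4 CPM with DMSO and 44.4, 51.4 and 52.4 CPM with RG7112, or -0.06 on the log2 scale (SE 0.25, adjusted p = 0.882). TYMS measured 136, 141 and 119 CPM and then 123, 152 and 110 CPM, or 0.04 on the log2 scale (SE 0.13, adjusted p = 0.848). Treated and untreated samples overlapped for both. TK1 measured 35.6, 89.5 and 33.6 CPM and then 40.3, 52.7 and 35.4 CPM, with a log2 fold change of -0.23 and an SE of 0.39 (adjusted p = 0.677). DUT measured 215, 209 and 224 CPM and then 204, 197 and 171 CPM. These 2 groups did not overlap, but the log2 fold change was -0.10 (SE 0.09, adjusted p = 0.418), and the value turned to 0.16 (adjusted p = 0.187) when scaled by library size alone and was -0.41 (adjusted p = 0.0309) after the GC correction. DCK had 0, 2 and 8 counts and then 5, 11 and 18 counts, and the ratio of the summed counts per effective library size was 2.33 with an exact 95% counting interval of 1.13 to 5.29.

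**Figure D2:**
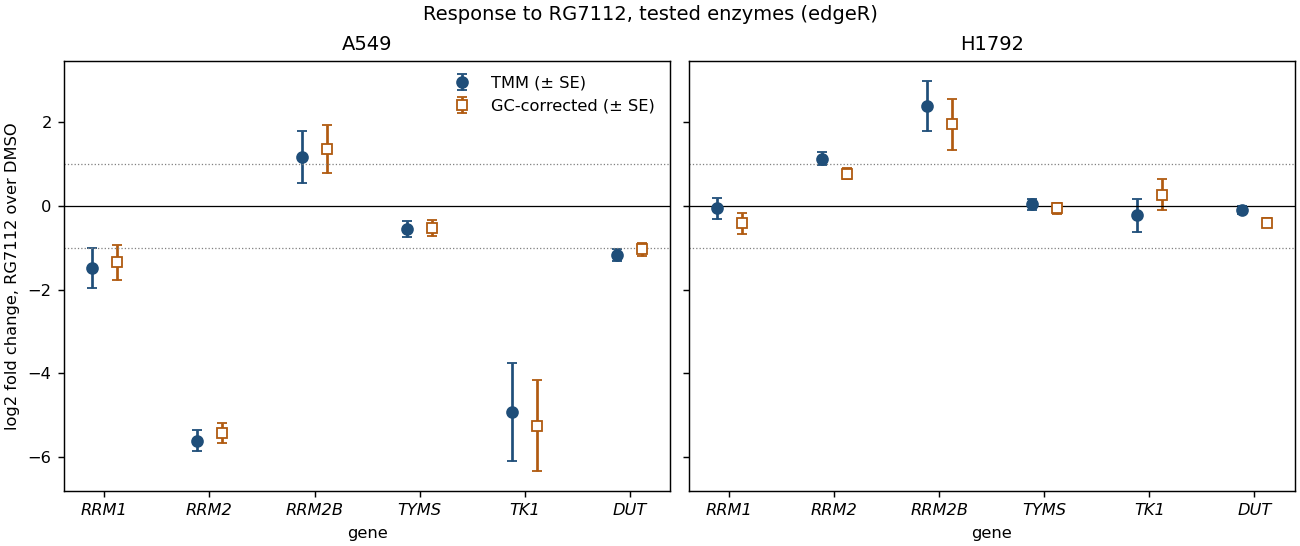
Log2 fold change of RG7112 over DMSO (vertical axis) for the 6 tested genes (horizontal axis) in A549 and H1792, from edgeR. Filled circles are values after TMM normalization, open squares are values after correction for GC content, bars are standard errors, and dotted lines mark log2 fold changes of -1 and 1. RRM2 lies at -5.60 in A549 and at 1.13 in H1792.

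In H1792, 10.3% of all tested genes were called higher and 4.34% lower. Of the 6 tested enzymes RRM2 and RRM2B were called higher and none lower. RRM2B passed the filter only through the treated samples in which it is high, so its call is not read against that share. Treatments did not overlap for 3 of the 7 genes (RRM2, RRM2B and DUT). Over all tested genes of H1792 that share was 53.3%, so a lack of overlap was common in this line. The 7 include DCK, which was not tested, and the 3 include RRM2B, so their count is not read against 53.3%.

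The difference between the responses was tested as an interaction over all 12 samples, which shares its samples with both responses. RRM2 responded differently by -6.66 on the log2 scale (SE 0.29, adjusted p = 3.65e-07), TK1 by -4.62 (SE 1.21, adjusted p = 0.0221) and DUT by -1.002 (SE 0.16, adjusted p = 0.00213). Each value is the response in A549 minus that in H1792. RRM1 (-1.36, adjusted p = 0.108) and TYMS (-0.52, adjusted p = 0.141) did not pass. RRM2B did not pass either, with a difference of -1.14 and a standard error of 0.93 (adjusted p = 0.413), so its response was not shown to differ between the p53 WT and the p53 mutant line. That difference was imprecise, and RRM2B had 1 to 3 counts in each untreated H1792 sample. DCK, not tested for either line on its own, differed by -1.52 with a standard error of 1.69 (adjusted p = 0.553). Thus 3 of the 7 genes were called lower, against 11.4% of all tested genes, and 0 were called higher, against 10.4%. Without H1792 DMSO replicate 3, TK1 missed the threshold (-4.38, adjusted p = 0.0519). The difference of DUT was -0.60 after the GC correction (adjusted p = 0.0438). It passed with the replicate number as a block (-0.99, adjusted p = 0.0119). With the block and the GC correction together DUT missed the threshold (-0.59, adjusted p = 0.0509). Without both A549 replicate 3 samples RRM2 had -6.81 and DUT -0.90, and RRM2, TK1 and DUT were called.

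Read side by side, the counts of RRM2 and RRM2B changed order in A549. There RRM2 was called lower (log2 fold change -5.60), whereas the rise of RRM2B (1.17) was not called (edgeR adjusted p = 0.316). The log2 ratio of RRM2 to RRM2B counts (0.5 added to each) was 4.95, 4.74 and 6.20 in the DMSO samples and -2.19, -1.63 and -0.60 in the RG7112 samples. There were thus more RRM2 than RRM2B counts in each untreated sample, for example 1242 against 46, and fewer in each treated sample, for example 23 against 107. The mean moved from 5.30 ± 0.79 to -1.48 ± 0.81 (SD, n = 3), a shift of -6.78. In H1792 the ratio was 7.11, 7.94 and 6.02 with DMSO and 5.82, 6.05 and 5.81 with RG7112, so RRM2 counts exceeded RRM2B counts throughout. The mean moved from 7.03 ± 0.97 to 5.89 ± 0.13, a shift of -1.13 with overlap between the groups. This shift was -0.67 without H1792 DMSO replicate 2 and -0.53 with a pseudocount of 2. The two-sided exact permutation p was 0.1 in A549, the smallest that 3 samples against 3 can give, and 0.2 in H1792. Per kilobase of the median protein-coding transcript (3431 bases for RRM2 and 1256.5 for RRM2B), the mean log2 ratio of levels in A549 was 3.85 with DMSO and -2.93 with RG7112, and in H1792 it was 5.58 and 4.44. With the longest transcript of each gene, an alternative added after the data were seen, these ratios of levels were 5.72, -1.05, 7.45 and 6.32. The change of sign in A549 did not depend on the length taken, but RG7112 replicate 3 stood at only -0.18 with the longest transcripts.

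**Figure D3:**
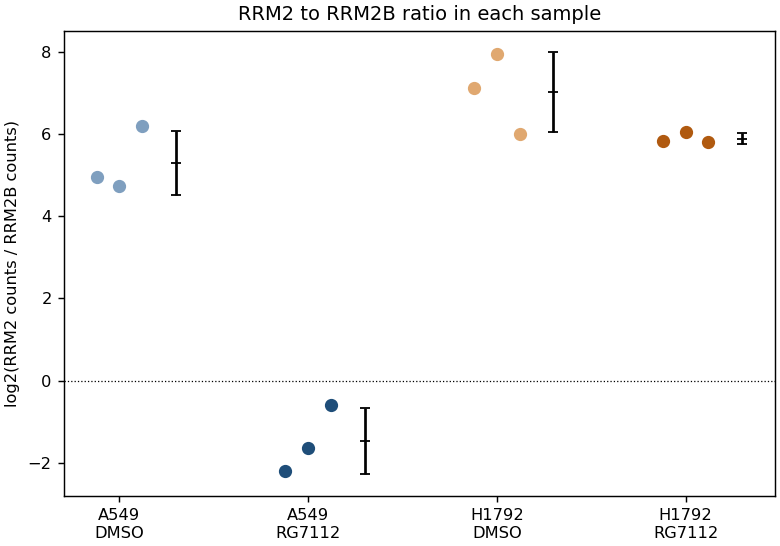
Log2 ratio of RRM2 to RRM2B counts in each sample (vertical axis), by cell line and treatment (horizontal axis). Points are replicates, and the dash with its bar is the mean ± SD of 3 replicates. The 3 A549 samples with RG7112 are the only ones below 0, the dotted line of equal counts.

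The genes differed in level as well. On the scale of CPM per kilobase of the median transcript, DUT led in each of the 4 groups, from 80.4 in A549 with RG7112 to 289 in H1792 with DMSO. TYMS (53.7 to 99.3) stood next in 3 groups, and level with TK1 in untreated A549 (79.3 and 80.9). RRM2 reached 53.2 in untreated A549 and 61.5 in treated H1792, where its partner RRM1 had 13.1 and 19.2. In treated A549 the order of the reductase subunits was reversed, with RRM2B at 9.51, RRM1 at 4.74 and RRM2 at 1.11. Their replicates overlap for RRM2B and RRM1, and with the longest transcripts RRM1 (3.97) stood above RRM2B (2.42), so those levels are not separated. DUT and TK1 have transcripts of very unequal length, and with the longest ones TYMS led DUT in both A549 groups. DCK was at or below 0.989 on the median scale in each group.

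Across the 4 groups, the levels of a gene fell into different orders. RRM2 was highest in treated H1792 (211 ± 5.03 CPM) and in untreated A549 (182 ± 39.6), which overlapped, then in untreated H1792 (102 ± 18.6), and lowest in treated A549 (3.80 ± 0.429). RRM2B ran from treated A549 (11.9 ± 5.81) over untreated A549 (5.28 ± 3.17) and treated H1792 (3.46 ± 0.377), each overlapping the next, to untreated H1792 (0.748 ± 0.540), which stood apart. DUT gave 4 levels without overlap, 216 ± 7.46 and 191 ± 17.4 in untreated and treated H1792, then 135 ± 14.1 and 60.0 ± 3.74 in A549. For RRM1, TYMS and TK1 the treated A549 samples lay below those of the 3 other groups, which overlapped each other. The groups of DCK all overlapped.

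Between untreated cells of the lines, RRM2B was the 1 gene of the 7 called, higher in A549 by 2.92 on the log2 scale (SE 0.74, adjusted p = 0.00723). It entered this fit through the treated samples and had 1 to 3 counts in each untreated H1792 sample, and with the DMSO samples alone it did not pass the filter. In all, 20.4% of tested genes were called higher in A549 and 14.5% lower. RRM2 was higher in A549 by 0.84 (adjusted p = 0.00200) and DUT lower by 0.67 (log2 difference -0.67, adjusted p = 0.000485), both under the fold threshold. RRM1 (-0.69), TYMS (-0.33), TK1 (0.05) and DCK (0.86) did not pass. This comparison and both responses share the DMSO samples.

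The genes most like RRM2 over the 12 samples, by Pearson's r of log2 CPM among 9175 genes tested in both lines, were HASPIN (0.994), MCM10 (0.992), DTL (0.991), KIF23 (0.991) and CDK1 (0.989). HASPIN and CDK1 are mitotic kinases, MCM10 and DTL act in DNA replication and its control, and KIF23 is a kinesin of cytokinesis. Of the other enzymes, TK1 (0.890) and DUT (0.879) came nearest to RRM2, then RRM1 (0.822) and TYMS (0.786). Those most like RRM2B were TM7SF3, CPD, KIDINS220, FADS1 and EXD2, with r from 0.953 to 0.957. RRM2B had r of -0.519 with RRM2 and -0.811 with TYMS. These coefficients describe 12 samples in 4 groups that share libraries and cell lines, so the points are not independent.

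Beyond the 7 enzymes, a list of 61 further genes of deoxynucleotide supply was described by role, and 57 of them were tested in each line. In A549, 6 were called lower and 1 higher, and the median log2 fold change was -0.32, against -0.01 over all tested genes, of which 3.01% were called lower and 3.18% higher. In H1792, 3 were called lower and 5 higher, with a median of -0.21 against 0.01 over all tested genes, of which 4.34% were called lower and 10.3% higher. The H1792 counts are near those shares, as is the 1 gene called higher in A549. CDK1, 1 of the 6 called lower in A549, entered that test through its DMSO samples, so the 6 are not read against their share. CDK1 is also in the E2F list described further below. MTHFD2, the mitochondrial enzyme that passes on one-carbon units for purines and thymidylate, and CDK2, a kinase of S phase that marks RRM2 for turnover, were the 2 genes called in both lines, in opposite directions. MTHFD2 fell from 43.8 ± 2.07 to 18.6 ± 6.50 CPM in A549 (log2 fold change -1.24, adjusted p = 0.0489) and rose from 90.6 ± 7.17 to 193 ± 4.55 CPM in H1792 (1.17, adjusted p = 0.00272). In A549 it lost its call without any 1 of the 6 samples, and in H1792 under the GC correction (0.72). CDK2 fell from 52.8 ± 3.05 to 18.4 ± 5.96 CPM in A549 (-1.51, adjusted p = 0.0193) and rose from 22.6 ± 7.28 to 60.9 ± 4.94 CPM in H1792 (1.51, adjusted p = 0.00851). The A549 call of CDK2 was lost without DMSO replicate 1, DMSO replicate 2 or RG7112 replicate 2 (adjusted p = 0.0700 to 0.0778).

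Of 6 listed electron donors of the reductase, the thioredoxin and glutaredoxin genes, 5 were tested in each line and none was called. The thioredoxin gene TXN was the 1 not tested. Among the genes of RRM2 turnover, CDK1 fell from 18.8 ± 3.26 to 0.314 ± 0.272 CPM in A549 (log2 fold change -5.76, adjusted p = 0.00240), and in H1792 it measured 14.9 ± 3.84 and 25.2 ± 3.10 CPM (0.84, adjusted p = 0.0385, under the fold threshold). In A549 CDK1 entered the test through its DMSO samples. Its treated mean lay under the level of 3 counts (0.465 to 1.43 CPM), so the size of its fall is uncertain. Of the thymidylate and folate genes, SHMT1, the cytosolic serine hydroxymethyltransferase, fell in A549 from 77.6 ± 18.7 to 26.8 ± 3.78 CPM (-1.53, adjusted p = 0.0108), and MTHFD1, a folate enzyme of the cytosol, fell in H1792 from 161 ± 18.7 to 20.6 ± 14.6 CPM (-2.92, adjusted p = 0.00557). The call of SHMT1 was lost without DMSO replicate 1, DMSO replicate 2 or RG7112 replicate 2 (adjusted p = 0.0514 to 0.0529). In the salvage and exchange group, TYMP, the thymidine phosphorylase that breaks thymidine down to thymine, rose in A549 from 16.3 ± 2.62 to 72.0 ± 15.2 CPM (2.13, adjusted p = 0.00319). It is the 1 gene of the list called higher in A549, and in H1792 it measured 25.2 ± 21.6 and 9.97 ± 4.96 CPM (-1.28, adjusted p = 0.224). UPP1, a uridine phosphorylase, fell in H1792 from 47.7 ± 2.09 to 22.2 ± 3.77 CPM (-1.03, adjusted p = 0.00634), a call that the GC correction (-0.68) and leaving out RG7112 replicate 2 (-0.91) brought under the fold threshold.

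Among 11 tested genes of purine synthesis, all had a log2 fold change below 0 in A549 under TMM normalization, with a median of -0.86, and 1 was called. Over all tested genes of A549 the median was -0.01, and 3.01% were called lower. The signs of all 11 after the GC correction are not given here. The gene called was PAICS, an enzyme of the middle of the purine ring pathway, which fell from 157 ± 11.3 to 62.3 ± 9.59 CPM (-1.33, adjusted p = 0.00437). In H1792, 6 of the 11 were below 0 and 5 above. There PRPS2, which makes the ribose donor PRPP, rose from 120 ± 14.0 to 276 ± 19.2 CPM (1.28, adjusted p = 0.00278), and PFAS, another purine enzyme, fell from 51.0 ± 11.4 to 15.2 ± 9.64 CPM (-1.66, adjusted p = 0.0347). The call of PFAS was lost under the GC correction (adjusted p = 0.0916) and without any 1 of H1792 DMSO replicates 1, 2 and 3 or RG7112 replicate 2 (0.0610 to 0.108). No gene of pyrimidine synthesis was called among 5 tested in either line, and of 7 genes of deoxynucleotide breakdown none was called in H1792 and 1 in A549. That gene, NUDT1, which hydrolyses oxidized purine nucleotides and is named here after its values were seen, had a log2 fold change of -1.72 in A549 and -0.79 in H1792.

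**Figure D4:**
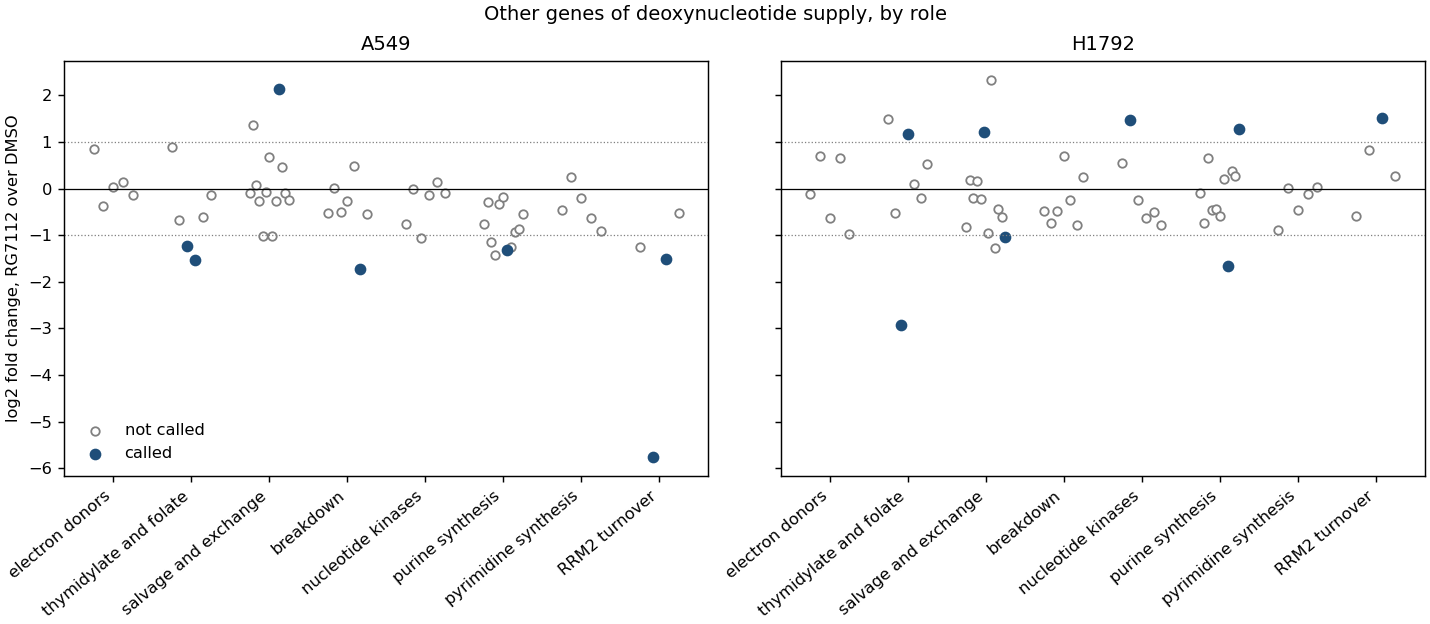
Log2 fold change of RG7112 over DMSO (vertical axis) for 57 tested genes of deoxynucleotide supply in A549 and 57 in H1792, grouped by role (horizontal axis). Each circle is a gene, filled where it was called, and dotted lines mark -1 and 1. In A549 TYMP alone is filled above 0, and CDK1 is the lowest point.

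For reference, 2 lists of genes set the enzymes beside their 2 programs, with members of the E2F list chosen from textbook targets outside the 7. Of 26 tested E2F targets in A549, 16 were called lower and 0 higher by the edgeR test, with a median log2 fold change of -2.75, where 3.01% and 3.18% of all tested genes were called. RRM2 (-5.60) and TK1 (-4.92) lay below that median and DUT (-1.18), RRM1 (-1.49) and TYMS (-0.56) above it. In H1792, 2 of 28 were called lower and 1 higher, with a median of 0.04, and RRM2 stood at 1.13. Of 25 tested p53 targets in A549, 0 were called lower and 8 higher, with a median of 0.98. RRM2B, which was not called, stood at 1.17, and at 0.76 to 1.59 when 1 sample was left out. In H1792, 1 of 19 was called lower and 3 higher, with a median of 0.14, and RRM2B stood at 2.38. The H1792 calls compare with 4.34% lower and 10.3% higher over all tested genes. These counts and medians are over the genes that passed the filter in each line and carry no test. CDK1, 1 of the 16 E2F targets called lower, entered the A549 test through its DMSO samples. That count is therefore not read against the 3.01% of all tested genes. Both lists were chosen with earlier results of these data known.

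In the GENCODE v29 annotation of GRCh38 the 7 genes lie on 7 chromosomes. RRM1 (ENSG00000167325) spans 4094707 to 4138876 on chromosome 11, plus strand. RRM2 (ENSG00000171848) spans 10120698 to 10131419 on chromosome 2, plus strand. RRM2B (ENSG00000048392) spans 102204502 to 102239118 on chromosome 8, minus strand. TYMS (ENSG00000176890) spans 657604 to 673578 on chromosome 18, plus strand. TK1 (ENSG00000167900) spans 78174075 to 78187233 on chromosome 17, minus strand. DUT (ENSG00000128951) spans 48331011 to 48343373 on chromosome 15, plus strand. DCK (ENSG00000156136) spans 70992538 to 71030914 on chromosome 4, plus strand. RRM1 overlaps the antisense RRM1-AS1, TYMS overlaps TYMSOS and ENOSF1 on the other strand, DUT overlaps AC023355.1 on the other strand, RRM2 overlaps AC007240.1 and DCK overlaps MOB1B on the same strand, and the counts of these 5 genes are less certain for that reason. RRM2B and TK1 overlap no annotated gene. No other gene of the table carried the same 12 counts as any of the 7.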

How the data were processed

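RNA was selected by poly-A and sequenced from both ends. The labels and the paper's methods differ on the read length and sequencer. The authors estimated transcript abundances with kallisto 0.45.0 on an Ensembl GRCh38 transcriptome, summed them to genes and deposited estimated counts (expected counts) as whole numbers without normalization. The kit was directional, and the strand setting of the counting is not given in the sources used here. The column names give the dose as 0.1 μM, and the 1 μM of the labels was used. The labels do not give p53 status. The paper gives A549 as p53 WT in most places and as mutant in 2, and the more frequent statement was used. All 12 columns were used.

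Counts were tested with edgeR 4.0.16 (R 4.3.3) by the quasi-likelihood test, robust, after filterByExpr (minimum count 10, minimum total count 15) and TMM normalization, for each line on its own. Called genes had p below 0.05 after Benjamini-Hochberg adjustment and moved by more than 1 on the log2 scale, the thresholds of the study's methods. For the interaction no fold threshold was set. The interaction and the comparison of untreated lines used 1 fit of all 12 samples. CPM values are TMM-normalized over 12 samples, ± is the SD, and standard errors are the log2 fold change divided by the root of F. The ratio of RRM2 to RRM2B was tested by exact two-sided permutation. Alternatives were DESeq2 1.42.0, RLE factors, library size only, no filter, a minimum of 10 counts in each sample, limma-trend (limma 3.58.1, prior count 2), a GC correction (loess per sample, span 0.5), the replicate number as a block with and without it, all 12 samples in 1 fit, DMSO samples only, no fold threshold, pseudocounts of 0.1 and 2 for the ratio, and leaving out each sample. Leaving out both A549 samples numbered 3 was added after the data were seen. The test was run on simulated data first.

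The 7 genes and all lists were chosen with earlier results of these data known. The genes named were the 7, CDKN1A and MDM2, the pathway genes called in both lines, the 3 called genes of smallest p per line and direction, and the 5 genes most correlated with RRM2 and with RRM2B. CCNA2 of the E2F list and SESN2 of the p53 list were not analysed here.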

Additional observations from a re-analysis of the deposited data

Results flagged for a closer look

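The responses of the 2 cell lines to RG7112 differed by the interaction test for 12 genes among the 7 enzymes, the 10 named genes of deoxynucleotide supply, CDKN1A and MDM2. The 10 named genes were chosen by their calls in these same samples, so their interaction calls are not independent of that choice. Over all tested genes the interaction called 11.4% lower and 10.4% higher, and the count of 12 is not read against those shares. Each value is the log2 fold change of A549 minus that of H1792, from edgeR over 12 samples. Among the enzymes these were RRM2 with -6.66, TK1 with -4.62 and DUT with -1.002. DUT had -0.60 after the GC correction (adjusted p = 0.0438) and missed the threshold with the replicate block added to it (-0.59, adjusted p = 0.0509). TK1 missed the threshold without H1792 DMSO replicate 3 (-4.38, adjusted p = 0.0519). Among the other genes of deoxynucleotide supply, CDK1 had -6.51 (adjusted p = 6.84e-05), CDK2 -2.95 (0.000873), MTHFD2 -2.33 (0.000630), PRPS2 -1.75 (0.00105), SHMT1 -1.55 (0.00346) and PAICS -1.45 (0.000557), all lower in the response of A549. The size for CDK1 is uncertain, as its treated A549 mean of 0.314 CPM lay under the level of 3 counts. TYMP had 3.49 (adjusted p = 0.0148), higher in the response of A549. The p53 targets MDM2 and CDKN1A had 3.12 (adjusted p = 0.00604) and 3.40 (adjusted p = 0.0450). The difference of CDKN1A missed the threshold in 9 of 12 fits that left out 1 sample and in 7 of 10 other alternatives, among them the fit without both A549 replicate 3 samples (1.99, adjusted p = 0.0965). The difference of TYMP missed it in 2 of 10, both with the GC correction (adjusted p = 0.0595 and 0.115). Groups of 3 samples were not tested for outlying samples.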

How the results depend on the processing

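The number of the 7 enzymes called was 3 in A549, 2 in H1792, 3 for the interaction and 1 between untreated lines. With at least 10 counts in every sample it was 1, 1, 1 and 0, because fewer of these genes are then tested. In A549 it was 2 without the filter on low counts, 4 with all 12 samples in 1 fit, and 2 to 3 when 1 sample was left out. In H1792 it was 0 with the GC correction, under which the calls over all genes went from 1450 to 1075. It was 1 with the replicate number as a block, 0 with the block and the GC correction together, and 0 to 2 when 1 sample was left out. Between untreated lines it was 2 with library size only, 3 without a fold threshold, 0 with the DMSO samples only, where RRM2B is not tested, and 1 to 2 when 1 sample was left out (RRM2 passed without A549 DMSO replicate 3). No value changed sign while called. Of 455 other values of single enzymes under an alternative, 426 kept their side of the threshold, 20 lost a call and 9 gained one. TYMS gained one for the interaction with library size only (-0.92, adjusted p = 0.0110), where the median of all genes moves by -0.37. RRM1 gained one for the interaction without A549 RG7112 replicate 2 (-1.81, adjusted p = 0.0410).

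The labels tie samples with the same replicate number by that number alone. The r of their deviations was 0.0609 to 0.273 in A549 and -0.0238 to 0.00346 in H1792, against -0.209 to 0.136 and -0.0156 to 0.0177 between different numbers. In A549 both samples numbered 3 went together, while DMSO replicate 1 correlated best with RG7112 replicate 2. Leaving out both samples numbered 3 kept the calls of RRM2, TK1 and DUT in A549. With the block, CDKN1A in A549 had an adjusted p of 0.0672 (0.0599 with the GC correction), RRM2B in H1792 had 0.0702 and RRM1 passed for the interaction (-1.49, adjusted p = 0.0489). With the block and the GC correction DUT missed the threshold for the interaction (-0.59, adjusted p = 0.0509). The block moved the count of all called genes in H1792 from 1450 to 995, and 544 with the GC correction. Depth limits RRM2B and DCK, with 0 to 18 counts in each H1792 sample.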
